A study of Mus musculus with 85 samples.

Results

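The genes described here are 32 that take a cell from glucose uptake to lactate or to the entry of pyruvate into the mitochondrion: the glucose and lactate transporters, the enzymes of glycolysis and their paralogs, the lactate dehydrogenases, and the pyruvate dehydrogenase complex with its kinases. They were chosen by name and not by their values, and each was read on its brightest probe set, the one with the highest mean over 5 cell populations weighted equally. Of the 32 genes, 29 had a probe set that named them alone, among 18193 genes of the array, and 28 were detected, with a log2 value above the background limit of 5, in at least 3 cells, as were 10694 genes of the array. The 29th, Pgam2, the muscle form of phosphoglycerate mutase, was detected in 0 of 84 cells. Gpi1 and Eno1 were not named in the probe annotation used here, and Gapdh was named alone only on control probe sets, so its values are given apart from the others. A member that passed this filter only through the population where it is high had to differ, so the counts below describe the 28 measured genes and not all 32.

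Glycolysis splits glucose into pyruvate and yields some ATP without oxygen. Glucose enters through carriers such as Slc2a1 and Slc2a3, a hexokinase traps it as a phosphate, and phosphofructokinase commits it to the pathway. Lactate dehydrogenase then exchanges pyruvate with lactate, which leaves or enters through the monocarboxylate transporters, while pyruvate dehydrogenase sends pyruvate to the mitochondrion unless its kinases switch it off. Many of these genes are known targets of HIF1, the transcription factor of low oxygen, and of Myc, and blood stem cells of the adult marrow are known for leaning on glycolysis.

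Each sample was 1 mouse cell, dissociated with collagenase, sorted singly, lysed and amplified as cDNA, and hybridised to its own Affymetrix array. The endothelial population (EC, 7 cells) and the hemogenic endothelium that gives rise to blood (HEC, 7 cells) came from the caudal portion of day E10.5 embryos with the eR1-GFP transgene, in which a Runx1 enhancer drives GFP. Both were CD31+Ter119-CD45-CD41-, and GFP separated them, negative in EC and positive in HEC. Cells of the blood clusters on the vessel wall were c-Kit+CD31+CD45+SSEA1- cells of wild-type embryos. They are called early cluster cells where taken on day E10.5 from the caudal portion (28 cells), and late cluster cells where taken on day E12.5 from the AGM, the aorta-gonad-mesonephros (16 cells). Blood stem cells (HSC, 27 arrays) were Lin-Mac-1+Sca-1+c-Kit+CD150+CD48- cells from the liver of wild-type fetuses on day E14.5. HEC and cluster cells thus differed in genotype and gate as well as in cell type, and later populations also in stage and tissue, and these cannot be told apart. No label ties a cell to an embryo, litter or sort, and each population is treated as a single sample. No test was made, the SDs are over cells and may be technical in part, and a gene is called higher or lower only by size, where mean log2 values differed by 1 or more.

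Several cells stood apart. The arrays of HSC 20 and 21 were nearly identical (r = 0.991, where the pair ranked next reached 0.859) and were averaged, which leaves 84 cells. In EC cell 3, Dppa3 and Pou5f1, which mark germ cells, stood at log2 14.59 and 13.96 and the endothelial gene Cdh5 at 2.32. Late cluster cells 3, 6 and 10 held the macrophage gene C1qb at 15.69, 15.59 and 15.88, and HSC 5 and 7 the endothelial gene Lyve1 at 15.05 and 14.73. These 6 cells were kept, and the counts, and those differences below that end or move most without them, are also given without them. Over all cells, these 6 included, the population means of the markers followed the gates. The mean over the endothelial genes was 7.86 in EC and 9.90 in HEC and 2.71 to 4.36 in the other populations. That over the blood genes was 9.27 to 11.52 in clusters and HSC and 2.97 and 3.04 in EC and HEC. HSC 5 and 7 were at 10.73 and 11.65 on the endothelial genes and at 2.66 and 2.57 on the blood genes. Early cluster cell 17 was at 7.44 on the endothelial genes and at 11.63 on the blood genes. The mean number of probe sets detected was 5905 in EC, 7712 in HEC, 9943 in early cluster cells, 7820 in late cluster cells and 6552 in HSC, so the populations differed in how much of the array was detected.

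The group as a whole was highest in early cluster cells. The mean log2 value over the 28 genes was 6.45 ± 1.18 (SD, n = 7) in EC, 7.08 ± 0.91 (n = 7) in HEC, 8.75 ± 0.75 (n = 28) in early cluster cells, 7.44 ± 1.31 (n = 16) in late cluster cells and 6.54 ± 0.81 (n = 26) in HSC. Of the 28 genes, 20 had their highest mean in early cluster cells, as did 50.4% of all measured genes. The exceptions were Slc2a1 in EC, Hk1 in HEC, Hk3, Pfkfb4, Aldoc and Eno2 in late cluster cells, and Ldhb and Pdk2 in HSC. For Slc2a1 and Hk1 this depends on the probe set. Other sets of Slc2a1 were highest in HEC (11.68, against 11.49 in EC) and in early cluster cells (9.43, against 8.55 in EC). A second set of Hk1, detected in 9 cells, was highest in early cluster cells (3.29). A median of 20 of the 28 genes were detected in an early cluster cell, against 13 in EC, 14 in HEC, 16.5 in late cluster cells and 14.5 in HSC. The median number of probe sets detected on the whole array was also highest in early cluster cells. It was 9967 there, against 5729 in EC, 7834 in HEC, 7916.5 in late cluster cells and 6582.5 in HSC.

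**Figure D1:**
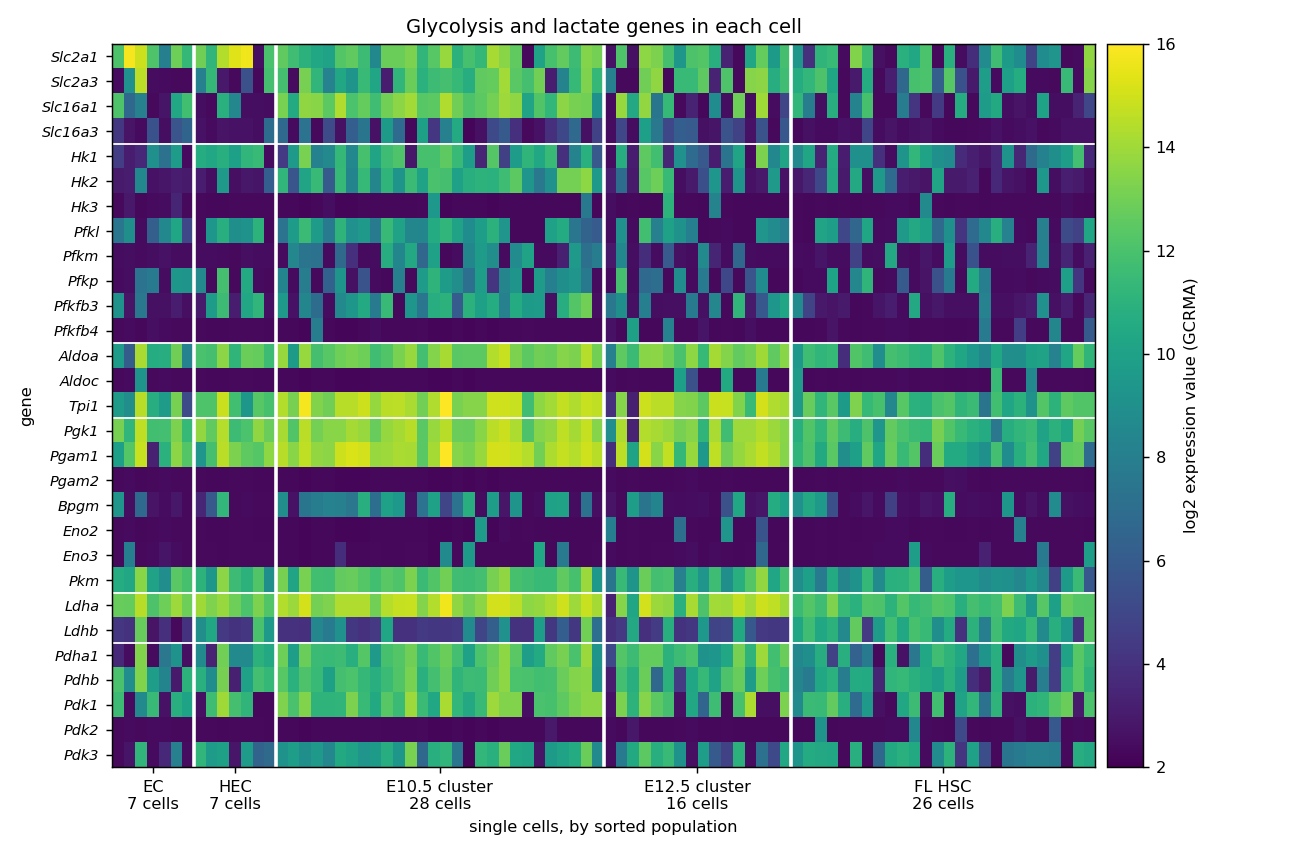
Log2 expression value (colour) of the 29 genes with a probe set naming them alone (rows, ordered by their role) in each of the 84 cells (columns, grouped by population). These are the 28 measured genes and Pgam2, which was not detected in any cell. Aldoa, Pgk1, Pkm and Ldha are above background in nearly every cell, Hk2 and Slc16a1 are above it in all 28 early cluster cells (E10.5) and in 2 of 7 HEC each, and Ldhb is above it in 23 of 26 HSC.

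The amount of array detected moved with the group. Within early cluster cells, the mean over the 28 genes correlated with the number of probe sets detected at Pearson r = 0.82 and with the mean of the S-phase genes at 0.73 (n = 28 cells). The same values were 0.91 and 0.87 in late cluster cells (n = 16) and 0.56 and 0.32 in HSC (n = 26). These are descriptions across cells, whose values share 1 array and its depth. S-phase genes averaged 12.34 in early cluster cells, against 9.65 in EC, 9.99 in HEC, 9.74 in late cluster cells and 8.42 in HSC. Genes that dissociation induces averaged 4.30, 5.96, 8.84, 9.28 and 3.63 from EC to HSC. The 3' minus 5' difference of the Actb control sets, a sign of RNA length, averaged 3.96 in HSC and 2.61 to 3.32 in the other populations. That of Gapdh averaged 2.64 in HSC, 2.73 in HEC, 2.30 in EC, 1.82 in early and 1.91 in late cluster cells, so the 2 controls did not order the populations alike. The part of detection, cell cycle, stress and RNA length in the differences below was not tested.

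Since the whole array moved, each difference was also computed on arrays shifted to 1 median signal and on quantile-normalized arrays. Between EC and HEC, 9 of the 28 genes were higher in HEC and 2 lower, with a median difference of 0.081. Over all measured genes 45.9% were higher and 7.36% lower, with a median of 0.82. After the shift the split turned to 5 higher and 13 lower (26.6% and 30.7% of all genes), and after quantile normalization to 6 and 10 (25.5% and 21.6%), so the direction of the group here depends on the scaling. Under all 3 scalings 5 genes were higher in HEC, namely Hk1, Pfkfb3, Ldhb, Pdha1 and Pdk3, and 2 lower, Aldoc and Slc16a1, beside 20.4% and 7.28% of all genes. Without EC cell 3 the deposited values gave 11 higher and 3 lower, with a median of 0.30. Hk2 then differed by 1.25 in place of 0.45, Pdhb by 1.05 in place of 0.41 and Slc2a3 by 2.84 in place of 1.25.

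From HEC to early cluster cells, 15 genes were higher and 1 lower, with a median of 1.05, beside 43.1% higher and 15.7% lower among all measured genes and a median of 0.71. After quantile normalization it was 10 and 1, beside 27.9% and 22.8%. Under all 3 scalings 10 were higher (Slc2a3, Slc16a1, Hk2, Pfkm, Tpi1, Pgam1, Bpgm, Pdha1, Pdhb and Pdk1) and 1, Ldhb, was lower, beside 27.9% and 11.5% of all genes. From early to late cluster cells, 18 genes were lower and 2 higher, with a median of -1.51, beside 39.9% lower and 5.47% higher among all genes and a median of -0.66. Quantile normalization gave 9 lower and 3 higher, beside 19% and 15.1%. Without the 3 cells that held C1qb the number lower was 14, with a median of -1.07, and Pgk1 differed by -0.57 in place of -1.07 and Pfkp by -0.995 in place of -1.61. It was also 14, with a median of -1.06, without late cluster cell 1, which had 4137 probe sets detected, the fewest of its population. Under all 3 scalings 9 genes were lower (Slc2a1, Slc16a1, Hk1, Hk2, Pfkl, Pfkm, Pfkfb3, Pgam1 and Pdk1, beside 19% of all genes) and 2, Aldoc and Eno2, were higher (5.01%).

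From late cluster cells to HSC, 15 genes were lower and 1, Ldhb, was higher, with a median of -1.12, beside 36.9% lower and 7.91% higher among all genes and a median of -0.53. Quantile normalization gave 5 lower and 2 higher, beside 19.3% and 17.3%. Without the 6 cells that stood apart 17 were lower, with a median of -1.25. Hk1 then differed by -1.40 in place of -0.49, Pfkp by -1.23 in place of -0.44 and Slc2a3 by -3.08 in place of -1.69. Of the 15, 5 were lower under all 3 scalings (Slc16a3, Aldoa, Pgam1, Eno2 and Pdha1, beside 19.1% of all genes). HSC set against early cluster cells gave 21 lower and 1 higher, with a median of -2.50, beside 55.5% lower and 5.01% higher and a median of -1.29. After quantile normalization 12 were lower and 1 higher, beside 25.8% and 20.4%. Without the 6 cells 21 were lower and 2 higher, with a median of -2.45. Of the 21, 12 were lower under all 3 scalings (Slc2a1, Slc2a3, Slc16a1, Hk2, Pfkfb3, Aldoa, Tpi1, Pgam1, Pkm, Pdha1, Pdhb and Pdk1, beside 25.8% of all genes). Ldhb was the 1 gene higher in HSC under all 3 scalings in both comparisons, where 7.87% and 5.01% of all genes were. The comparisons share populations, so their values are not independent of each other.

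**Figure D2:**
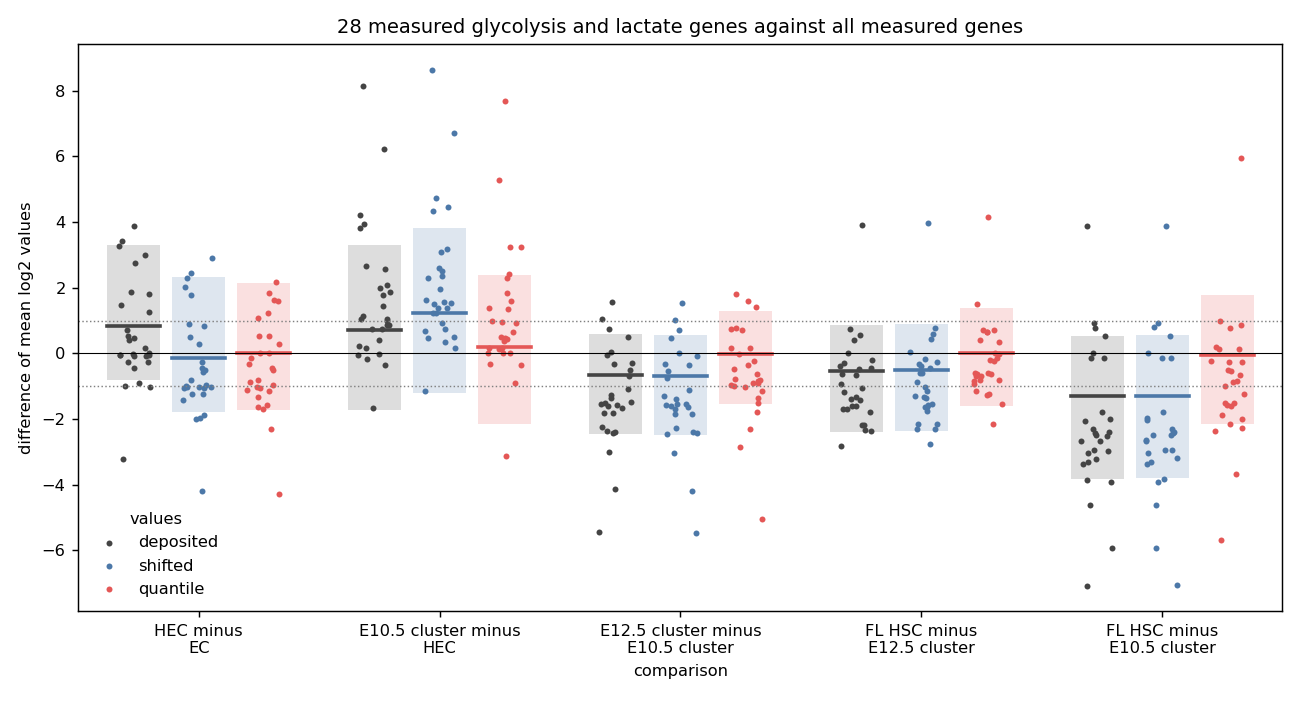
Differences of mean log2 values for the 5 comparisons under 3 scalings, which colour tells apart: grey for deposited values, blue for the shift and red for quantile normalization. Dots are the 28 measured genes, and the shaded bands span the 10th to 90th percentile of all 10694 measured genes. The short line in each band is their median, and the dotted lines mark a size of 1. On the deposited values the median of the dots is 0.081 from EC to HEC, but -0.89 after the shift and -0.48 after quantile normalization. On the deposited values the dots lie mostly above 0 from HEC to early cluster cells and mostly below 0 in the 3 later comparisons, with Ldhb as the highest dot in both comparisons with HSC.

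The sequences just upstream of the start sites of 4 of these genes are shown because their values, given below, set them apart: Slc16a1 and Hk2 were far higher in early cluster cells than in HEC, and Ldha and Ldhb are the paired lactate dehydrogenases with different patterns. They are the 250 bases before the first start site in RefSeq on GRCm38.p6, in the direction of the gene, at chr3:104638414-104638663 (+) for Slc16a1, chr6:82774455-82774704 (-) for Hk2, chr7:46845554-46845803 (+) for Ldha and chr6:142507958-142508207 (-) for Ldhb. Capitals mark ACGTG on either strand, a form of the core that HIF factors are known to recognise, including those within CACGTG, the E-box of Myc and its relatives. CACGTG reads the same on both strands and holds ACGTG on each.
Slc16a1: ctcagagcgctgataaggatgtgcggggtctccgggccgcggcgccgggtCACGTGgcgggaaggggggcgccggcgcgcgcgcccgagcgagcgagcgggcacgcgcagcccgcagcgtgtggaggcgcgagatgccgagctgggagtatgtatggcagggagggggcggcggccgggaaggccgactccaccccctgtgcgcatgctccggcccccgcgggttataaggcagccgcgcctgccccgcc
Hk2: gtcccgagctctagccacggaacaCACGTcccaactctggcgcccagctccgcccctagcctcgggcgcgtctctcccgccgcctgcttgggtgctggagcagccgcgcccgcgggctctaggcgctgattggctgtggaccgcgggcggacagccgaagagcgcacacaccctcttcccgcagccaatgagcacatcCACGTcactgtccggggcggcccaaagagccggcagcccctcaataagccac
Ldha: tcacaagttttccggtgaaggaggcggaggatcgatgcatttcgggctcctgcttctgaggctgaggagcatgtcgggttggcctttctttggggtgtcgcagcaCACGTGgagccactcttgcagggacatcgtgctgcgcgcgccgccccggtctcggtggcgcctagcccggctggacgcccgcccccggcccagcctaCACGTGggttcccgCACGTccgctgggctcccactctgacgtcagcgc
Ldhb: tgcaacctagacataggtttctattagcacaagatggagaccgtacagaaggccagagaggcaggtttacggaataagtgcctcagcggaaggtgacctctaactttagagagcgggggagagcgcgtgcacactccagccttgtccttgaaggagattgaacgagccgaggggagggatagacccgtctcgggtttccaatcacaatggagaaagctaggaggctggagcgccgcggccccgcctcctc
Counted from the start site, Ldha held CACGTG at -145 and -48 and a single ACGTG at -34, Slc16a1 held CACGTG at -200, and Hk2 held ACGTG at -226 and -52. Neither motif was found in the Ldhb window, in that of the other start site of Ldha (chr7:46846832-46847081), or in those of the 2 start sites of Pdk1. Other forms of the HIF core were not counted. One of them, GCGTG, occurs in the Ldhb window and in the first window of Pdk1, so these are not windows without any HIF core. Slc2a3 had no entry. All members with an entry, the 4 genes shown above included, were 31 genes with 45 start sites, some overlapping. Over these, ACGTG was found in 18 windows, 40.0%, beside 16.6% of all 32851 windows and 22.1% of the 11231 windows of measured genes. CACGTG was found in 5, 11.1%, beside 6.02% and 8.50%. These matches describe the letters alone: base composition was not matched, and binding was not measured here.

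The transporters differed among themselves. Slc2a1, the glucose carrier of most cells, ranged from 8.03 to 15.78 in EC (median 12.14), from 2.57 to 15.68 in HEC (12.99), from 2.36 to 14.16 in early cluster cells (12.10), from 2.34 to 13.63 in late cluster cells (11.35) and from 2.34 to 13.70 in HSC (9.05). All populations overlapped, and the number of cells with the gene detected went from 7 of 7 EC, 6 of 7 HEC and 27 of 28 early cluster cells to 12 of 16 late cluster cells and 16 of 26 HSC. The means of EC, HEC and early cluster cells (12.46 ± 2.53, 12.02 ± 4.49 and 11.67 ± 2.23) lay within 1 SD of each other. From early to late cluster cells the mean differed by -2.24, and from late cluster cells to HSC by -1.68.

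Slc2a3, a carrier of higher affinity for glucose, ran in another order. It ranged from 2.34 to 14.58 in EC (median 2.41), from 2.33 to 11.87 in HEC (5.46), from 2.39 to 14.05 in early cluster cells (11.39), from 2.31 to 13.66 in late cluster cells (11.45) and from 2.35 to 13.45 in HSC (8.28). It was detected in 2 of 7 EC and 4 of 7 HEC but in 25 of 28 early cluster cells, and the difference between HEC and early cluster cells was 4.21, or 3.23 after quantile normalization. From early to late cluster cells its mean differed by -1.52, but by -0.061 without the 3 cells with C1qb, which held Slc2a3 at 2.36, 2.31 and 3.42.

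Slc16a1, which encodes the lactate and pyruvate carrier MCT1, had the largest differences of the 28 genes from HEC to early and from early to late cluster cells. In EC it ranged from 2.38 to 12.15 with a median of 8.12, and in HEC from 2.36 to 10.90 with a median of 2.51. In all 28 early cluster cells it lay between 9.04 and 14.35, with a median of 12.99. It then spread from 2.30 to 14.01 in late cluster cells, with a median of 6.17, and from 2.31 to 11.90 in HSC, with a median of 3.73. Early cluster cells were thus all high (12.67 ± 1.25), while each other population held cells at background, with 5 of 7 EC, 2 of 7 HEC, 8 of 16 late cluster cells and 10 of 26 HSC above it. Of the endothelial populations, 3 of 7 EC and 1 of 7 HEC reached into the range of early cluster cells.

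From EC to HEC the mean of Slc16a1 differed by -3.22, and 0.206% of all measured genes had a lower difference. It was 8.13 higher in early cluster cells than in HEC (7.70 after quantile normalization), and 0.168% of genes had a larger difference. From early to late cluster cells it differed by -5.45 (-5.05 after quantile normalization), and 0.0561% of genes had a lower difference. Without the 3 cells with C1qb, which held it at 10.46, 11.38 and 8.81, this was -6.15, and 5 of the other 13 cells had the gene detected. HSC differed by -1.62 from late cluster cells, or by -1.05 without the 6 cells that stood apart, and by -7.07 from early cluster cells. Basigin (Bsg), the membrane partner that MCT1 needs at the cell surface, was detected in 28 of 28 early cluster cells and in 23 of 26 HSC, with means of 10.28 ± 1.37 and 7.83 ± 1.82.

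Slc16a3 encodes MCT4, the carrier known for lactate export from glycolytic cells. It was detected in 3 of 7 EC, 1 of 7 HEC, 14 of 28 early cluster cells, 9 of 16 late cluster cells and 0 of 26 HSC, where its highest value was 4.92. The exact 95% interval of that share of HSC reaches 13.2%, which covers counting error over cells only. Its mean in HSC (2.61 ± 0.49) differed by -2.19 from that of late cluster cells.

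**Figure D3:**
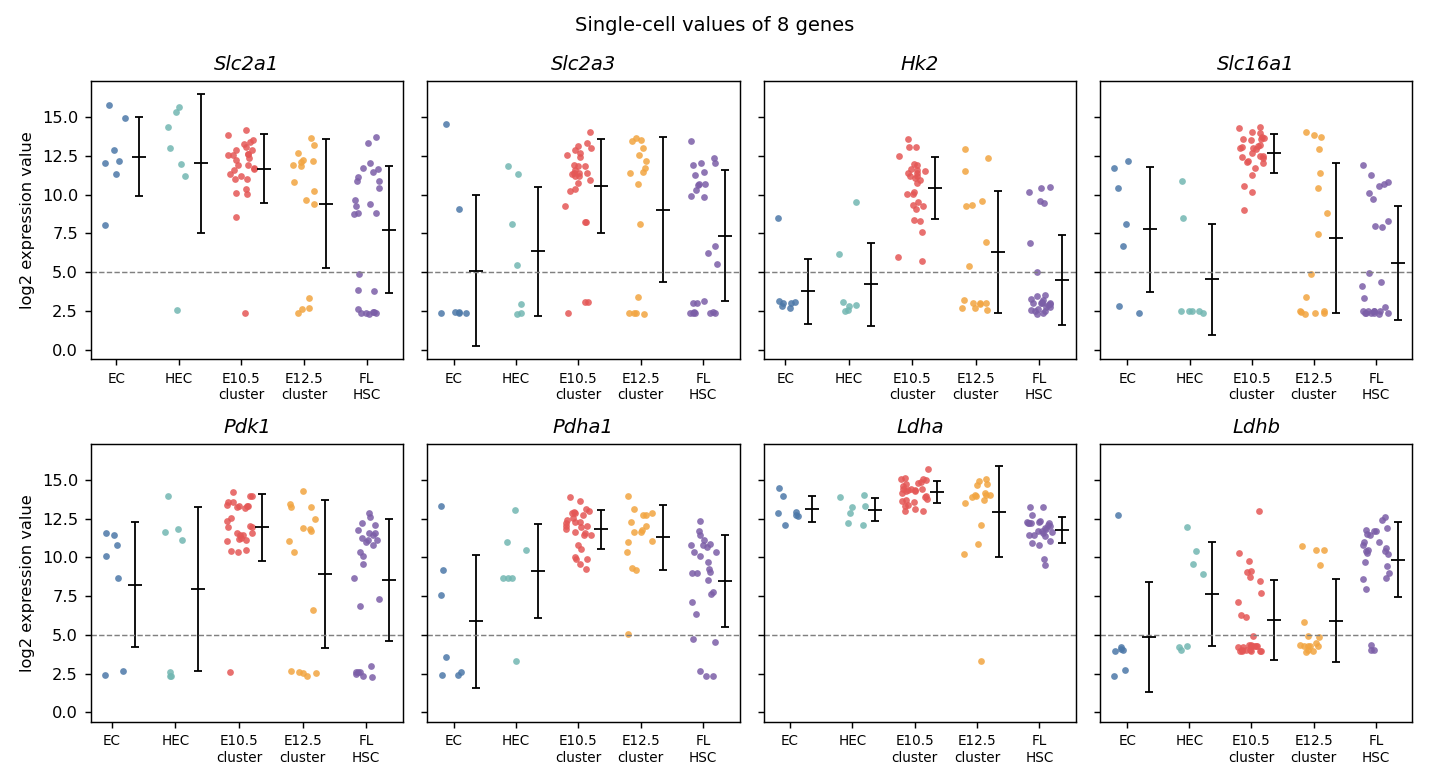
Log2 expression value of 8 of the genes in each cell (points) of the 5 populations (E10.5 and E12.5 are the early and late cluster cells), with the mean and SD over cells (dash and bar) and the background threshold of 5 (dashed line). All early cluster cells lie above background for Slc16a1, Hk2 and Pdha1, from 9.04, 5.70 and 9.26 upwards, Ldhb is high in most HSC and in 4 of 7 HEC, and Slc2a1 and Pdk1 hold both high cells and cells at background in most populations.

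The hexokinases trap glucose inside the cell. Hk2, the inducible form known from growing and tumour cells, ranged from 2.69 to 8.52 in EC (median 3.04), from 2.49 to 9.51 in HEC (2.90), from 5.70 to 13.62 in early cluster cells (11), from 2.53 to 12.93 in late cluster cells (4.30) and from 2.31 to 10.48 in HSC (3.03). It was detected in 1 of 7 EC, 2 of 7 HEC and 28 of 28 early cluster cells, and then in 8 of 16 late cluster cells and 7 of 26 HSC. The 1 EC above background was cell 3, the cell with germ-cell genes. Its mean was 6.22 higher in early cluster cells than in HEC (5.29 after quantile normalization), which 0.804% of all genes passed. Late cluster cells differed from early ones by -4.15 and HSC by -5.93.

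Hk1, the hexokinase of most tissues, did not share that order. Its mean was 5.66 ± 2.98 in EC, 9.54 ± 3.19 in HEC, 9.37 ± 3.07 in early cluster cells, 7.55 ± 3.78 in late cluster cells and 7.07 ± 3.18 in HSC. HEC were thus 3.88 above EC, with 6 of 7 against 3 of 7 cells with the gene detected, while early cluster cells differed from HEC by -0.17. A second probe set of Hk1, detected in 9 of 84 cells, gave a difference of -0.06 between HEC and EC. The 3 late cluster cells with C1qb held Hk1 at 3.06 to 3.53, and without them the difference from early to late cluster cells was -0.81 in place of -1.81. Hk3, a hexokinase known from myeloid cells, was detected in 5 of 84 cells. Both late cluster cells among them, at 11.06 and 8.29, were cells with C1qb, and it was detected in 0 of the other 13.

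Phosphofructokinase has 3 isoforms. The liver form Pfkl was detected in 62 of 84 cells, with means from 6.18 in late to 8.58 in early cluster cells. The muscle form Pfkm was at background in all 7 EC and all 7 HEC (highest value 2.70) but above it in 17 of 28 early cluster cells (mean 6.27 ± 3.16), in 4 of 16 late cluster cells and in 4 of 26 HSC. The difference from HEC to early cluster cells was 3.82, or 2.43 after quantile normalization. The platelet form Pfkp was detected in 4 of 7 EC, 3 of 7 HEC, 19 of 28 early cluster cells, 8 of 16 late cluster cells and 9 of 26 HSC, and its means differed by less than 1 from EC to HEC and from HEC to early cluster cells.

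Pfkfb3 makes fructose-2,6-bisphosphate, the activator of phosphofructokinase, and is known as a driver of glycolysis in sprouting endothelium. Its mean was 4.35 ± 2.81 in EC, 7.36 ± 4.24 in HEC, 8.42 ± 3.19 in early cluster cells, 5.99 ± 3.29 in late cluster cells and 3.80 ± 2.39 in HSC. HSC had 4 of 26 cells with the gene detected, against 23 of 28 early cluster cells, and their means differed by -4.62. The HEC value lay 3.01 above EC, but 3 of the 7 HEC were at background, so the cells did not form 1 group. The related Pfkfb4 was detected in 6 of 84 cells, with 3 in HSC, 1 in early cluster cells and 2 in late cluster cells. The latter, at 9.94 and 8.23, were again cells with C1qb.

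The enzymes of the lower pathway were detected in nearly all cells. Aldoa, the main aldolase, and Pgk1, which makes ATP from bisphosphoglycerate, were each detected in 83 of 84 cells, as were Pkm, the pyruvate kinase of dividing cells and muscle, and Ldha. Tpi1, which interconverts the triose phosphates, was detected in 82 cells and Pgam1, the mutase ahead of enolase, in 80. The means of these 6 genes shared 1 order over the blood populations, early cluster cells above late cluster cells above HSC. All measured genes had median differences of -0.66 and -0.53 over the same steps. By the median over cells, Pgk1 (13.82 in early and 13.88 in late cluster cells) and Aldoa (12.996 and 13.005) did not follow this order. After quantile normalization Aldoa differed by -0.015 from early to late cluster cells. From late cluster cells to HSC, Pgk1 and Ldha then differed by -0.23 and -0.15.

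For Pgam1 the range was 3.31 to 14.81 in EC (median 12.24), 9.32 to 14.53 in HEC (12.52), 12.40 to 16.10 in early cluster cells (14.35), 3.85 to 15.08 in late cluster cells (13.80) and 3.84 to 12.78 in HSC (10.68). HSC and early cluster cells overlapped only between 12.40 and 12.78. The mean of HSC differed from that of early cluster cells by -3.84, or by -2.17 after quantile normalization.

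Tpi1 ranged from 11.71 to 16.09 in early cluster cells (median 14.37) and from 7.39 to 13.31 in HSC (11.46), a difference of means of -2.96. From HEC to early cluster cells its mean was 2.08 higher, or 1.84 after quantile normalization. Aldoa differed by less than 1 SD between early and late cluster cells (12.97 ± 1.04 and 12.65 ± 1.46) and differed by -2.35 from there to HSC. Pkm was at 12.15 ± 0.96 in early cluster cells, 10.79 ± 1.76 in late cluster cells and 9.19 ± 1.72 in HSC, and Pgk1 at 13.71 ± 0.79, 12.64 ± 2.90 and 11.31 ± 1.20.

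Late cluster cell 1 bears on several of these values. It was the lowest of its population in the mean over the 28 genes, at 4.03. Without it the differences from early to late cluster cells were -0.97 for Tpi1, -0.90 for Pgam1 and -0.62 for Ldha, in place of -1.55, -1.50 and -1.26. The medians of late cluster cells, 13.81 for Tpi1 and 13.80 for Pgam1, lay within 0.6 of those of early cluster cells.

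Gapdh, read on its control probe set at the 3' end, had means of 13.59 ± 1.24 in EC, 14.37 ± 0.45 in HEC, 14.89 ± 0.40 in early cluster cells, 14.36 ± 0.93 in late cluster cells and 12.72 ± 0.81 in HSC. Its values in HSC (11.25 to 14.33) lay mostly below those in early cluster cells (14.03 to 15.66), with a difference of -2.16. The control sets nearer the 5' end gave -2.50 and -2.99.

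The paralogs with narrow expression were seen in few cells. Aldoc, the brain aldolase, was detected in 1 of 7 EC, 0 of 7 HEC, 0 of 28 early cluster cells, 4 of 16 late cluster cells and 3 of 26 HSC. The lower value of HEC against EC (-1.03) rests on EC cell 3, without which it was -0.047. Eno2, the neuronal enolase, was detected in 1 of 28 early cluster cells, 4 of 16 late cluster cells and 1 of 26 HSC, and Eno3, the muscle enolase, in 9 of 84 cells. Without late cluster cell 1 the difference of Eno2 from early to late cluster cells was 0.77 in place of 1.06. From late cluster cells to HSC it was then -0.76 in place of -1.06. None of the 4 late cluster cells with Aldoc or the 4 with Eno2 was a cell with C1qb. Bpgm, which makes the 2,3-bisphosphoglycerate of red cells, was detected in 19 of 28 early cluster cells and in 2 of 7 EC, 2 of 7 HEC, 7 of 16 late cluster cells and 7 of 26 HSC.

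The lactate dehydrogenases had different patterns in the blood populations, with Ldha lowest and Ldhb highest in HSC. Ldha, whose enzyme favours lactate, ranged from 12.07 to 14.49 in EC (median 12.88), from 12.05 to 14.01 in HEC (13.23), from 12.98 to 15.71 in early cluster cells (14.31), from 3.29 to 15.02 in late cluster cells (13.97) and from 9.48 to 13.27 in HSC (11.86). It was detected in all cells but late cluster cell 1. HEC differed from EC by -0.031, early cluster cells were 1.13 above HEC, and HSC differed from early cluster cells by -2.44, with an overlap only between 12.98 and 13.27. Of all measured genes, 29.5% had a lower difference between HSC and early cluster cells. After quantile normalization Ldha in HSC differed by -0.998 from early cluster cells, under the limit of 1, and by -0.15 from late ones. Without HEC cell 5 or 7 the difference of 1.13 was 0.96 or 0.98.

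Ldhb, whose subunit favours the reaction from lactate to pyruvate, ranged from 2.37 to 12.74 in EC (median 4.03), from 4.04 to 11.98 in HEC (8.92), from 3.93 to 13.01 in early cluster cells (4.34), from 3.91 to 10.76 in late cluster cells (4.42) and from 4.01 to 12.61 in HSC (10.45). It was detected in 23 of 26 HSC and in 4 of 7 HEC, against 1 of 7 EC, 11 of 28 early cluster cells and 5 of 16 late cluster cells. The 1 EC was cell 3, with germ-cell genes, and 2 of the 5 late cluster cells were cells with C1qb. All populations overlapped, but most HSC lay where few cluster cells did.

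The mean of Ldhb in HSC (9.84 ± 2.41) was 3.92 above that of late cluster cells (5.92 ± 2.66) and 3.88 above that of early cluster cells (5.96 ± 2.55), while 0.355% and 0.290% of all measured genes had larger differences. The differences were 4.14 and 5.94 after quantile normalization and 4.84 from late cluster cells without the 6 cells that stood apart. Its 3 other probe sets gave 4.35 to 5.12 for HSC against late cluster cells. HEC lay 2.76 above EC, or 4.07 without EC cell 3. Early cluster cells differed from HEC by -1.67, or by -0.94 without HEC cell 6. Its r against the number of probe sets detected was 0.12 in early cluster cells, -0.013 in late cluster cells and -0.24 in HSC.

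**Figure D4:**
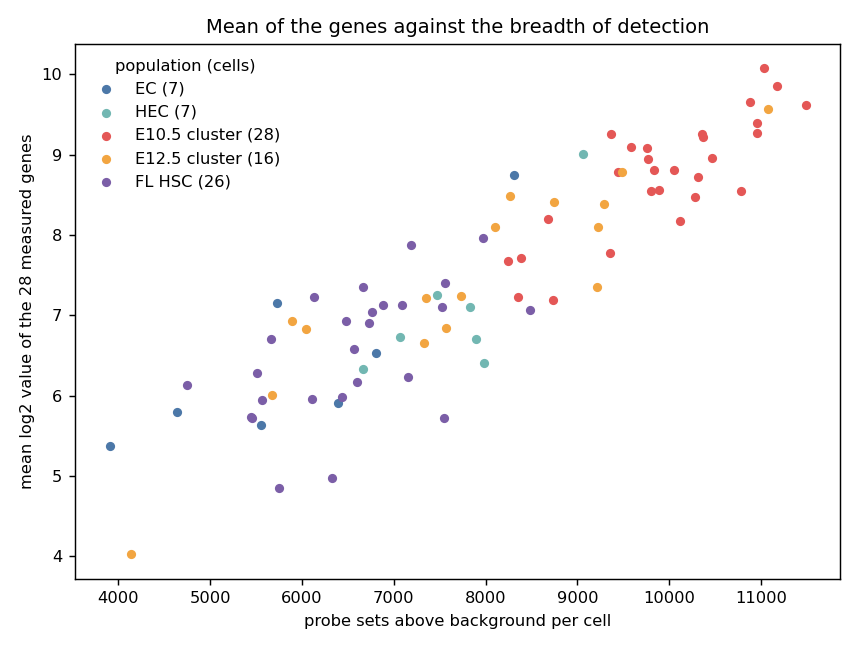
Mean log2 value over the 28 measured genes (y axis) against the number of probe sets detected (x axis) for each of the 84 cells, coloured by population. Early cluster cells lie at the upper right, between 8244 and 11487 probe sets and 7.19 and 10.08. EC and HSC lie mostly at the lower left, so the mean and the amount detected move together. EC cell 3, with germ-cell genes, lies among the early cluster cells, at 8308 probe sets and 8.75.

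Pyruvate dehydrogenase and its kinases also differed. Pdha1, the catalytic alpha subunit, was detected in 3 of 7 EC, 6 of 7 HEC, all 28 early cluster cells, all 16 late cluster cells and 21 of 26 HSC. Its mean went from 5.87 ± 4.26 in EC to 9.13 ± 3.02 in HEC and 11.80 ± 1.25 in early cluster cells, was 11.29 ± 2.11 in late cluster cells and was 8.48 ± 2.97 in HSC. On its brightest probe set Pdha1 was thus higher at both steps into the cluster, by 3.26 (4.50 without EC cell 3) and 2.67 (1.71 without HEC cell 2). It differed by -2.81 from late cluster cells to HSC. A second probe set of Pdha1, detected in 46 cells, gave 0.68, 4.44 and -4.04 for the same differences, the first of them under the limit of 1. Pdhb, the beta subunit, lay between 9.08 and 13.64 in all 28 early cluster cells and had cells at background in every other population. Its difference of 1.99 between HEC and early cluster cells was 0.88 without HEC cell 4.

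Pdk1, the HIF-induced kinase that switches the complex off, ranged from 2.39 to 11.60 in EC (median 10.10), from 2.32 to 13.98 in HEC (11.14), from 2.58 to 14.21 in early cluster cells (11.98), from 2.34 to 14.29 in late cluster cells (11.35) and from 2.31 to 12.84 in HSC (10.58). The medians lay closer together than the means. It was detected in 27 of 28 early cluster cells, 5 of 7 EC, 4 of 7 HEC, 11 of 16 late cluster cells and 19 of 26 HSC. The differences of means were 3.96 from HEC to early cluster cells and -3.01 from early to late cluster cells. Pdk3 was detected in 2 of 7 EC and 6 of 7 HEC, 3.42 apart in their means, or 4.50 without EC cell 3, and was highest in early cluster cells (9.55 ± 2.46). Pdk2, the kinase of most resting tissues, was detected in 4 of 26 HSC and in 0 of the other 58 cells.

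Pairs of these genes were also compared across the cells of 1 population. Ldha and Pgk1 correlated at r = 0.82 in early cluster cells, 0.64 in late cluster cells and 0.07 in HSC, and Ldha and Pgam1 at 0.77, 0.95 and 0.24. Hk2 and Slc16a1 correlated at 0.56, 0.46 and 0.16, and Ldha and Ldhb at -0.05, 0.01 and -0.10. By rank (Spearman), Ldha and Pgk1 gave 0.89, 0.69 and 0.12, and Ldha and Pgam1 0.75, 0.69 and 0.22. Late cluster cell 1 had neither Ldha nor Pgam1 detected, and the 0.95 includes it. These values describe 28, 16 and 26 cells whose genes share an array and its depth, and the difference between populations was not tested.

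Other genes of carbon metabolism, from lists chosen by name, were set beside these. Of 8 further genes at the entry of pyruvate into the mitochondrion, 4 were higher in early cluster cells than in HEC and 0 lower, where 43.1% of all genes were higher. From early to late cluster cells 6 were lower and 0 higher, where 39.9% of all genes were lower. In HSC against early cluster cells 6 were lower and 0 higher, with a median of -2.73, where 55.5% of all genes were lower. Mpc1, a subunit of the mitochondrial pyruvate carrier, was detected in 2 of 7 HEC and 27 of 28 early cluster cells, with means of 5.63 ± 4.73 and 10.89 ± 2.15. Pdhx, which anchors subunits of the complex, was detected in 0 of 7 EC, 0 of 7 HEC, 21 of 28 early cluster cells, 5 of 16 late cluster cells and 2 of 26 HSC.

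The 15 measured genes of the citric acid cycle, which burns the product of pyruvate dehydrogenase, had 12 higher and 0 lower from HEC to early cluster cells, with a median of 1.72, and 15 of 15 lower in HSC than in early cluster cells, with a median of -3.08. The 6 measured genes of the pentose phosphate pathway, which draws on glucose for nucleotides and NADPH, had 5 higher (median 2.57) and 6 lower (median -2.76) in the same comparisons. The glycolysis and lactate genes had medians of 1.05 and -2.50 there, and all measured genes 0.71 and -1.29, with 43.1% higher and 55.5% lower. These medians had the same direction as those of all genes.

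Of 15 regulators chosen by name, 8 were higher and 3 lower from HEC to early cluster cells, beside 43.1% and 15.7% of all genes. From there to HSC 3 were higher and 9 lower, beside 5.01% and 55.5% of all genes. The medians of the regulators, 1.13 and -1.07, turned to -0.33 and 1.36 after quantile normalization. Myc was detected in 2 of 7 EC, 2 of 7 HEC, 25 of 28 early cluster cells, 7 of 16 late cluster cells and 8 of 26 HSC, with means of 4.43 ± 3.56 in HEC, 10.60 ± 3.37 in early cluster cells and 5.09 ± 3.72 in HSC. Mycn, its relative, was detected in 20 of 26 HSC and in 10 of 28 early and 4 of 16 late cluster cells. Hif1a, the oxygen-regulated subunit of HIF1, had means of 9.78 ± 3.49 in EC, 9.48 ± 3.44 in HEC, 11.88 ± 1.14 in early cluster cells, 11.82 ± 1.72 in late cluster cells and 9.58 ± 2.75 in HSC. Its protein is set mainly by degradation, which an array does not read. Epas1, which encodes HIF2 alpha, was detected in all 7 HEC (13.55 ± 0.96), in 3 of 7 EC and in 2 of 28 early cluster cells. Egln3, an oxygen sensor and HIF target, was detected in 0 of 7 EC, 2 of 7 HEC, 22 of 28 early cluster cells, 6 of 16 late cluster cells and 3 of 26 HSC.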

How the data were processed

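Each of the 85 cells was read on 1 array of 45101 probe sets. The authors deposited log2 values, for which the submitters' processing notes name GCRMA and affy (the sources used here do not give the versions). Values over 5 were taken as above background, and a gene as measured when above it in at least 3 cells. In 62 arrays the Dap 3' control held 12.64 and the Phe 3' control 9.50, the same in each, a step that no source used here describes. The distributions differ between arrays, so the scaling can change the size and sign of a difference.

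Probe sets with 1 gene symbol in the platform annotation were used, and 29 of 29 member genes matched RefSeq genes of GRCm38.p6. HSC arrays 20 and 21 were averaged, since the labels do not say why they agree more closely than any other pair. Differences of mean log2 values over cells were computed with Python 3.11.15, numpy 2.4.6 and pandas 2.3.3, and a size of 1 was set as the limit. No test was made, because no animal is named and a population counts as 1 sample. The number of arrays limits the precision. Genes named are all members and, of the other lists, genes among the 3 with the largest difference in a comparison or direct partners of a member, such as Bsg, Mpc1, Pdhx and Hif1a. The members, lists and limits were chosen with earlier results of these data known. The calculation was checked on simulated data, where a known shift put into some genes was recovered. This checks the arithmetic and not the calls made by size. Alternatives were the scaling, the probe set, the median over cells, the background and size limits, and leaving out cells.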

Additional observations from a re-analysis of the deposited data

Results flagged for a closer look

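In the populations of 7 cells, 44 combinations of gene and population were looked at for a single cell far from the other cells by Dixon's ratio, and 9 were found. A share of about 1 in 20 would apply to normally distributed values, which values at background are not. Groups with no cell above background were left out. A group with a single detected cell and the others at background is readily flagged, so the 9 are not compared with that share. In EC, Hk2 was 8.52 in cell 3 against 2.69 to 3.13 in the other cells, Aldoc was 9.24 in cell 3 against 2.34 to 2.41, and Ldhb was 12.74 in cell 3 against 2.37 to 4.23. Cell 3 is the EC with germ-cell genes. Pgam1 was 3.31 in EC cell 4 against 9.90 to 14.81, and Eno3 was 8.03 in EC cell 2 against 2.36 to 2.82. In HEC, Slc2a1 was 2.57 in cell 6 against 11.19 to 15.68, and Bpgm was 11.27 in cell 3 against 2.35 to 5.92. HEC cell 7 was apart on both Slc16a3, at 6.97 against 2.42 to 2.72, and Hk1, at 2.40 against 9.92 to 11.48.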

How the results depend on the processing

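No paired analysis was possible because no test was made and the replicate numbers only name cells. Where a count moved with the processing, the cause was not tested. From EC to HEC, 5 of the 28 genes were higher and 13 lower after the shift to an equal median, and 10 were lower after quantile normalization, 5 using only cells with both control sets at the shared value, and 1 each when probe sets of a gene were averaged, with values under background set to the threshold and with a size of 1.5. From HEC to early cluster cells, 2 were lower with only cells with both control sets at the shared value. From early to late cluster cells, 9 were lower after quantile normalization and 9 by the median over cells. The number higher there was 1 with the mean of probe sets or a size of 1.5, 0 by the median over cells or with the threshold, and 1 without late cluster cell 1, a choice made after seeing the data. From late cluster cells to HSC, 5 were lower and 2 higher after quantile normalization, and 2 higher with only cells with both control sets at the shared value. For HSC against early cluster cells, quantile normalization gave 12 lower with a median of -0.85, and without the 6 cells that stood apart 2 were higher. Leaving out 1 EC or HEC at a time gave 7 to 11 higher, 2 to 5 lower and a median of -0.061 to 0.49 from EC to HEC, with 5 lower without EC cell 5 and 4 without EC cell 2 or HEC cell 3. It gave 12 to 17 higher, 1 to 2 lower and a median of 0.84 to 1.59 from HEC to early cluster cells, with 2 lower without HEC cell 7.

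Of 140 member differences, 85 reached the size of 1, and 35 of these were under it after quantile normalization, 15 by the median over cells and 13 with the mean of probe sets. Among these 85, signs turned in 6 cases. Smaller differences that changed sign are not counted. Pfkfb3 from HEC to early cluster cells was -8.69e-05 after quantile normalization and -0.18 by the median. By the median, Slc2a3 and Pgk1 from early to late cluster cells were 0.059 and 0.057, and Eno2 from late cluster cells to HSC was 0.030. Slc2a3 from EC to HEC was -0.12 with only cells with both control sets at the shared value. Of 27 differences of size 1 that involve a population of 7 cells, 10 were under it on leaving out some 1 cell.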
